A study of Mus musculus with 15 samples.

Results

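The cytochromes P450 of families 1 to 3 are the enzymes with which the liver oxidises drugs, toxins and many lipids. They were taken here as every probe set of the array whose single annotated gene symbol has the form Cyp1, Cyp2 or Cyp3 followed by a subfamily letter and a number. This gave 52 probe sets for 43 genes, out of 18193 genes with a probe set of their own, and where a gene had several the brightest on average was used. The rule reads gene symbols and uses no measured difference. A gene entered the tests if a probe set reached a log2 value of 4, a level close to the array's background, on at least 3 arrays. This left 30 of the 43 P450 genes, among 9482 genes in all.

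The levels come from 15 liver samples of mice aged 15 weeks, 1 array each. The untreated wild-type group held 3 samples of C3H/HeOuJ mice that were given none of the agents below. The treated wild-type group held 4 samples of C3H/HeOuJ mice that received 1 injection of the liver carcinogen DEN (diethylnitrosamine, 100 mg/kg) at week 12 and injections of the liver toxin CCl4 (carbon tetrachloride, 0.50 ml/kg) at weeks 13 and 15. The treated mutant group held 4 samples of C3H/HeJ mice with the allele Tlr4P712H in the receptor for bacterial lipopolysaccharide, given the same injections. The antibiotic group held 4 samples of C3H/HeOuJ mice that drank ampicillin, neomycin and metronidazole (1 g/l each) with vancomycin (500 mg/l) for 2 weeks from week 10, before the same injections. All treated livers were taken 48 hours after the last CCl4 dose. No untreated mutant and no antibiotic group without DEN and CCl4 was analysed here, and the mutant differed from the wild type by strain as well as by allele, so strain and Tlr4 cannot be told apart. The labels do not say whether a sample was 1 animal or a pool, and p-values measure the spread between samples. A free description attached to every sample speaks instead of mice 10 to 12 weeks old and of livers taken 2 hours after liver resection. The ages and treatments above follow the other labels, and which is right was not tested. The sex is given as male for all samples but mutant replicate 1, for which none is given.

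P450 enzymes are haem proteins of the endoplasmic reticulum that insert an oxygen atom into their substrate with electrons supplied by a reductase. Many of their genes are switched on by receptors that sense foreign compounds: the aryl hydrocarbon receptor Ahr for family 1, the constitutive androstane receptor CAR (gene Nr1i3) for subfamily 2b and the pregnane X receptor PXR (gene Nr1i2) for subfamily 3a. In liver most are made by hepatocytes, and several, Cyp2e1 and Cyp1a2 among them, mainly by those around the central vein. Cyp2e1 also turns CCl4 into the radical that injures these cells and takes part in the activation of DEN.

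Levels below are log2 GCRMA values, a background-corrected and normalised probe set signal, and differences are log2 differences between group means ± SE. A gene is said to rise, fall or differ where limma's test, adjusted by Benjamini-Hochberg over all 9482 genes, gave an adjusted p under 0.05. Where arrays of the lower group lay under 4 they were set to 4 for the fold, which is then a lower bound. Between 34.6% and 36.7% of probe sets reached 4 on an array, and arrays of a group correlated at 0.977 to 0.993 over the genes tested. Tlr4 lay under 4 on all arrays and was not tested, and its level would not show a point mutation. The liver label was borne out by the albumin gene Alb, whose mean was 14.76 in untreated and 14.68 in treated wild type, while the 6 T and NK cell and the 5 kidney and adrenal markers with a probe set lay under 4 on all arrays. From the level of 1 gene in whole liver tissue, fewer cells of a type and less RNA per cell cannot be told apart. The levels of hepatocyte genes are given with the cell markers at the end.

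Most of the P450 genes were lower after DEN and CCl4. In treated against untreated wild type, 22 of the 30 genes fell and 2 rose, with a median difference of -1.18. Over all genes tested, 26.7% fell and 35.9% rose, with a median of 0.10. The treated arrays lay entirely below the untreated ones for 24 of the P450 genes and entirely above for 2 (28.9% and 37.5% of all genes). One of the falls, that of Cyp2g1, was fixed by the filter, since only its 3 untreated arrays reached 4. Without it 21 of 29 fell and 2 rose, with 23 genes entirely below and a median of -1.16. Cyp1a1, 1 of the 2 genes that rose, lay under 4 on all untreated arrays and passed the filter through treated arrays alone. The direction of calls over all genes depends on scaling: 3408 genes rose and 2530 fell in the values as deposited, 2594 and 3520 after each array was centred on its median, which moved the median over all genes to -0.12 and the P450 median to -1.41. The P450 counts under that centring were 2 higher and 24 lower.

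**Figure D1:**
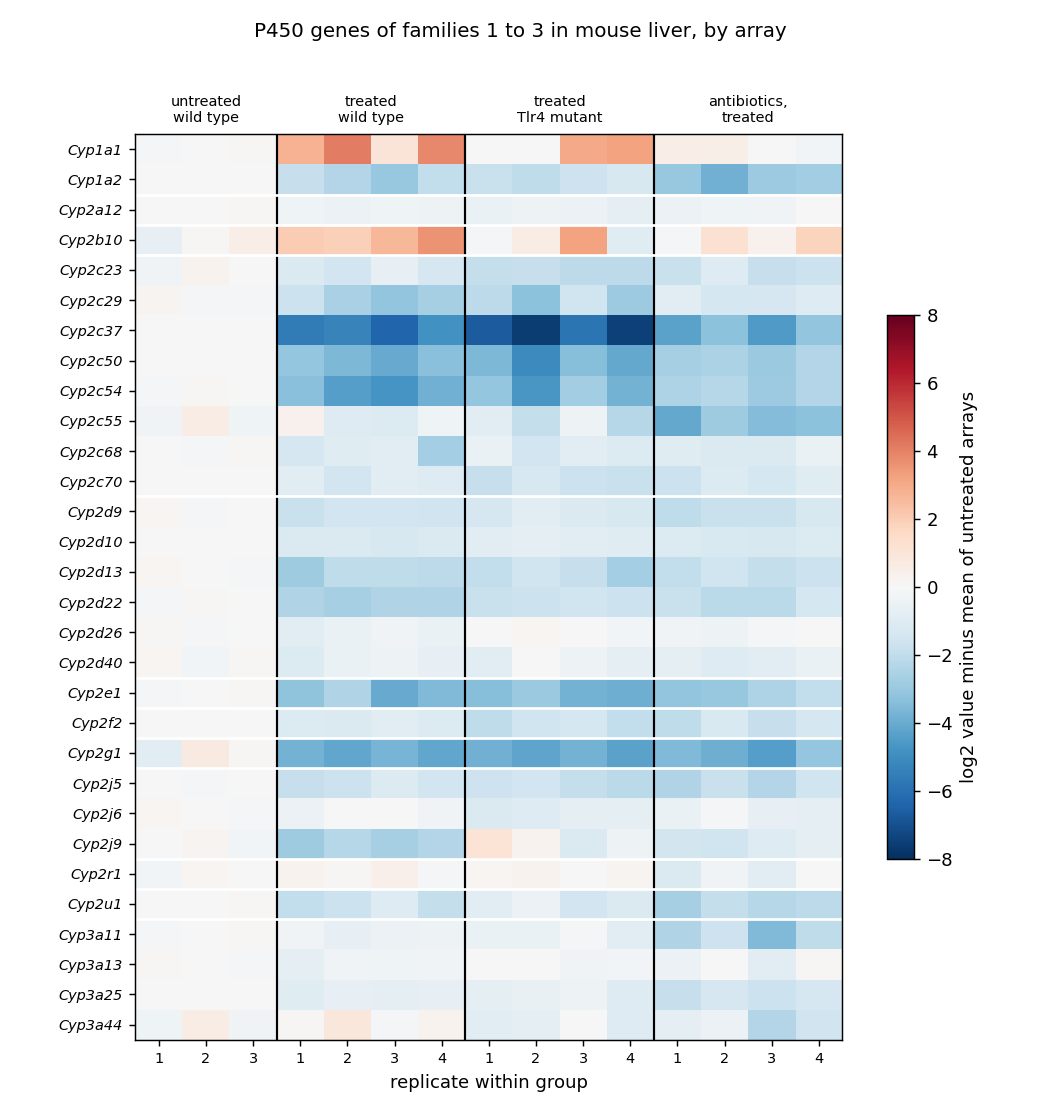
Log2 value of each of the 30 tested P450 genes on each array, minus the gene's mean over the 3 untreated arrays, with genes in rows grouped by subfamily and arrays in columns grouped by treatment. Blue covers most rows in the 3 treated groups, with Cyp2c37 lowest, and red stands in the rows of Cyp1a1 and Cyp2b10, which were 2.94 and 2.57 higher in treated than in untreated wild type.

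Between the treated groups P450 genes were called in both directions, as were all genes tested. In the treated mutant against the treated wild type 6 of 30 were higher and 5 lower (20.0% and 16.7%). These shares lie near the 13.2% and 17.6% of all genes, and the P450 median was -0.04. In the antibiotic group against the treated wild type 5 were higher and 7 lower (16.7% and 23.3%), beside 4.95% and 9.01% of all genes. The P450 median there was -0.13. Both comparisons use the same 4 treated wild-type arrays, which also stand on the other side of the comparison with untreated mice. The 3 comparisons are therefore not independent of each other. Stricter thresholds aside, all 24 calls of the treatment comparison held in every alternative processing that tested the gene. In the mutant comparison 7 of 11 did so, and in the antibiotic comparison 6 of 12. The 24 include Cyp2g1, whose fall was fixed by the filter, and Cyp1a1, which passed it through treated arrays alone. Cyp2g1 and Cyp2d40 were not tested under a filter at log2 6. Cyp2c23 was not tested when probe sets marked as shared sequence were left out.

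**Figure D2:**
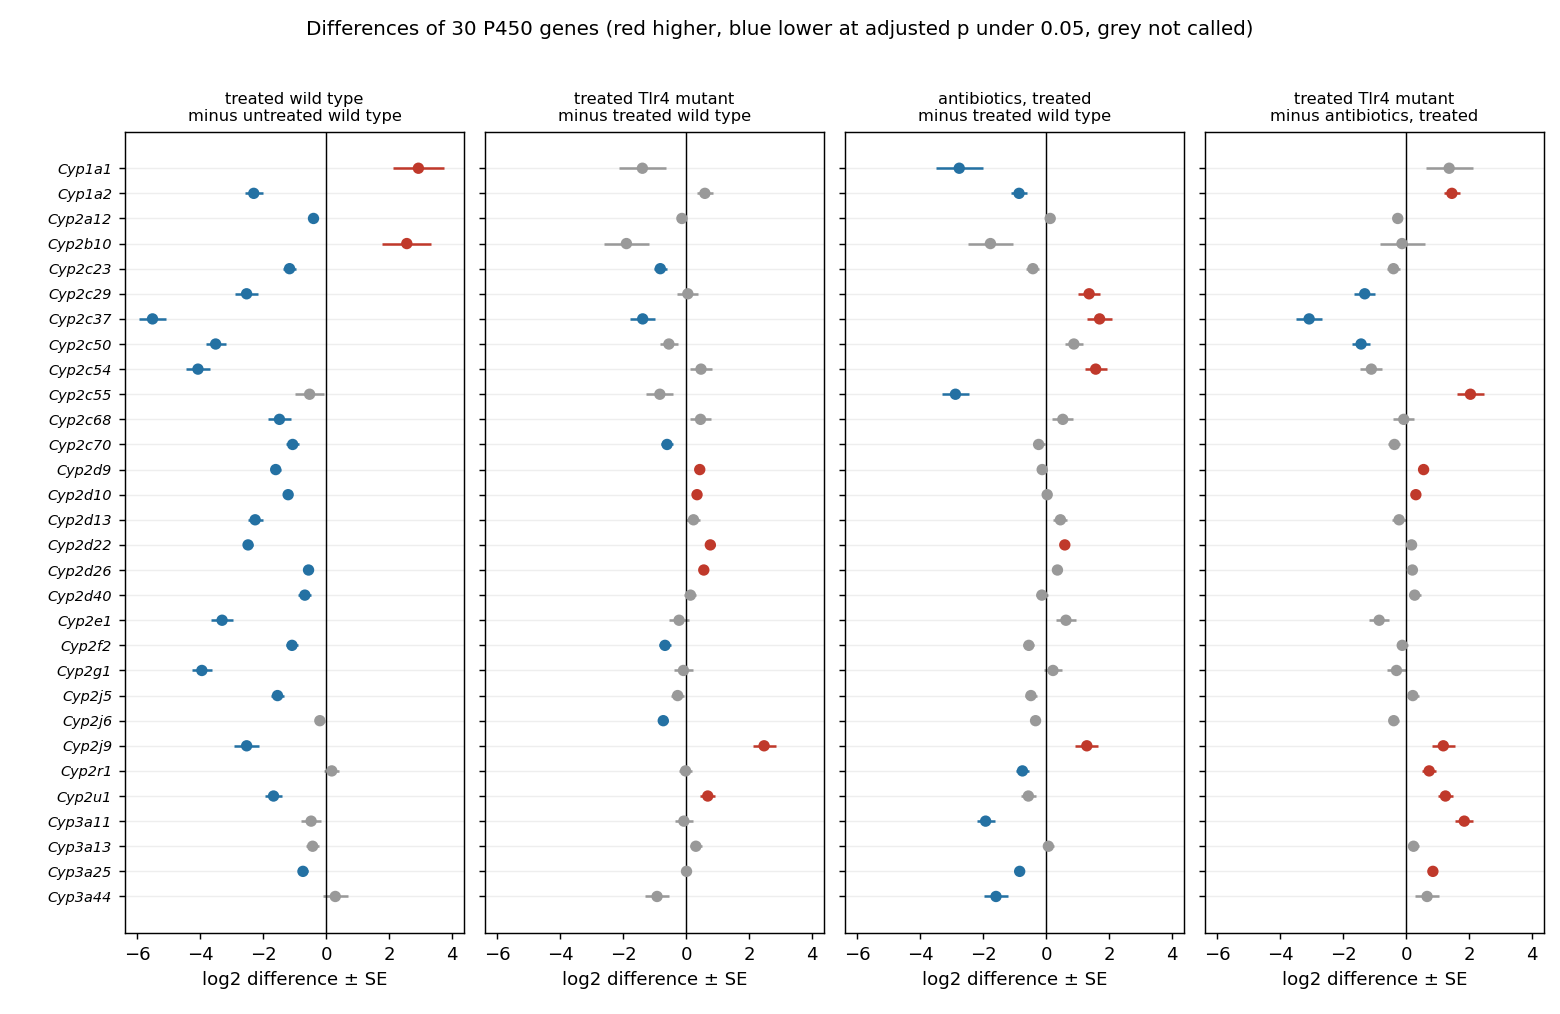
Log2 difference ± SE of each tested P450 gene in 4 comparisons, with positive values higher in the first group named; red and blue mark genes called higher and lower, grey those not called. In the first panel 22 genes are blue and 2 red, against 5 and 6 in the second, 7 and 5 in the third, and 3 and 9 in the fourth.

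Subfamily 2c held the largest fall. Its enzymes oxidise arachidonic acid and other fatty acids as well as drugs. Of its 8 tested genes, 7 fell with treatment in the wild type, with a median over the 8 of -2.00. Over all genes tested 26.7% fell, with a median of 0.10. All 11 Cyp2c genes with a probe set of their own, tested or not, lie on chromosome 19. The pair Cyp2c37 and Cyp2c50 is shown by its promoters because both genes fell and because they were the most alike of all P450 promoters compared, with 86.6% of aligned positions identical. The sequences run from 250 bases before to 50 bases after the transcript start, are taken from RefSeq (GRCm38.p6, both on the plus strand), and carry matches to the searched motifs in capitals. Positions give the first base of a match, negative before the start and counted from 1 after it.
Cyp2c37, chr19:39992174-39992473: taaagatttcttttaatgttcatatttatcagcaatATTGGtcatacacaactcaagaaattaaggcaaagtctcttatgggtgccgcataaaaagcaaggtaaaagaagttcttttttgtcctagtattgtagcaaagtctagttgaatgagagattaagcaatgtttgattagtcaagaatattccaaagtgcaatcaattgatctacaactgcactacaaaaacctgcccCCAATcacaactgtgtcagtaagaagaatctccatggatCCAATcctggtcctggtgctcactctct
Cyp2c50, chr19:40089429-40089728: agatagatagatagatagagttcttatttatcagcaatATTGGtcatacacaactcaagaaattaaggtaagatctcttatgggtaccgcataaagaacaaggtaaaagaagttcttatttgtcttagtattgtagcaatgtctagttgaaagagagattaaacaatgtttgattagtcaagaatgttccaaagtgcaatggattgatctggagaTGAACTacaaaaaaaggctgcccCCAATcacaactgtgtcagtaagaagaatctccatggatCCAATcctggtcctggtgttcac
Both hold the CCAAT box (CCAAT or ATTGG on the other strand) 3 times, at -214, -17 and 23 from the start in Cyp2c37 and at -212, -12 and 28 in Cyp2c50. Cyp2c50 also holds 1 half-site of the PXR and CAR elements (AGTTCA, here TGAACT on the other strand) at -35. Neither motif is rare: CCAAT was found in 37.408% and AGTTCA in 13.993% of all 32851 promoters of this length.

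Cyp2c37, an arachidonic acid hydroxylase, went from 10.90, 10.84 and 10.80 on the untreated arrays to 5.28, 5.51, 4.50 and 6.01 on the treated wild-type arrays. Mutant arrays gave 4.16, 3.26, 4.99 and 3.37, and antibiotic arrays 6.55, 7.58, 6.33 and 7.66. The untreated arrays were thus far above all others, and the antibiotic arrays lay above both other treated groups. The fall with treatment was -5.52 ± 0.44, or 45.8-fold (adjusted p = 8.35e-08). Against treated wild type the antibiotic group was higher by 1.70 ± 0.40 (3.25-fold, adjusted p = 0.0138). The mutant was lower, at least 2.05-fold since its replicates 2 and 4 lay under 4 (log2 difference -1.38 ± 0.40, adjusted p = 0.0186) with overlapping arrays. That last call was lost, at adjusted p from 0.0548 to 0.0627, without mutant replicate 2, mutant replicate 4 or treated wild-type replicate 4, where the difference was -1.19 to -1.15.

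Cyp2c50 and Cyp2c54, both known as epoxygenases of arachidonic acid, also fell with treatment. For Cyp2c50 the untreated arrays held 13.35, 13.40 and 13.42 and the treated wild-type arrays 10.32, 9.80, 9.38 and 10.02. Its mutant arrays stood at 9.77, 8.29, 9.98 and 9.29 and its antibiotic arrays at 10.72, 10.87, 10.42 and 11.04. The antibiotic arrays lay above all treated wild-type arrays, yet the difference of 0.88 ± 0.30 missed the threshold (adjusted p = 0.0606); without treated wild-type replicate 1 it was 1.03 (adjusted p = 0.0489). The treatment difference was -3.51 ± 0.32, 11.4-fold (adjusted p = 3.44e-07). Cyp2c54 was at 12.03, 12.26 and 12.19 in untreated mice and at 8.83, 7.75, 7.47 and 8.29 in treated wild type, a fall of 16.8-fold (log2 difference -4.07 ± 0.38, adjusted p = 4.28e-07). Mutant arrays held 9.05, 7.50, 9.35 and 8.35, overlapping the treated wild type. Antibiotic arrays held 9.72, 9.87, 9.25 and 9.82, above all treated wild-type arrays, with a difference of 1.58 ± 0.35 (adjusted p = 0.0102).

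Cyp2c29, one of the abundant drug-oxidising enzymes of mouse liver, also fell with treatment and was higher again with antibiotics. Untreated arrays read 13.56, 13.28 and 13.21 and treated wild-type arrays 11.66, 10.78, 10.17 and 10.69, a difference of -2.53 ± 0.37 (adjusted p = 3.21e-05). The mutant arrays, at 11.25, 10.06, 11.75 and 10.45, overlapped the treated wild type. The antibiotic arrays, at 12.50, 11.92, 12.01 and 12.34, did not overlap the treated wild type and were higher by 1.37 ± 0.34 (adjusted p = 0.0168). Without antibiotic replicate 1 the call was lost at a difference of 1.27 (adjusted p = 0.0511). Cyp2c37, Cyp2c54 and Cyp2c29 stayed below untreated mice in the antibiotic group, with differences of -3.82 ± 0.44, -2.49 ± 0.38 and -1.16 ± 0.37 (adjusted p = 4.71e-06, 6.27e-05 and 0.0141); for Cyp2c29 that call was lost without untreated replicate 1 (-1.05, adjusted p = 0.0524).

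Cyp2c55 behaved otherwise. This enzyme is known in mice as a target of PXR and CAR, and it is high in the colon. Treatment left it without a call, from 7.96, 8.89 and 7.95 to 8.62, 7.26, 7.20 and 7.91 (-0.52 ± 0.46, adjusted p = 0.338, arrays overlapping). Mutant arrays were spread over 7.45, 6.36, 7.87 and 5.96. Antibiotic arrays lay lower than all others, at 4.20, 5.44, 4.82 and 4.99. The antibiotic group was 7.37-fold below treated wild type (-2.88 ± 0.43, adjusted p = 0.00152), a call that held in every alternative.

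The other 3 Cyp2c genes also fell with treatment. Cyp2c23, an epoxygenase measured by a probe set marked as shared between transcripts, was at 9.10, 9.64 and 9.32 in untreated mice and fell by the difference -1.16 ± 0.22 with treatment, to 8.19, 7.85, 8.72 and 8.01 (adjusted p = 0.00035). In the mutant it lay lower still, at 7.46, 7.51, 7.26 and 7.26 (-0.82 ± 0.20, adjusted p = 0.0074), with no overlap. Its antibiotic arrays were at 7.59, 8.33, 7.54 and 7.63, with replicate 2 apart from the others and no call against treated wild type (-0.42 ± 0.20, adjusted p = 0.188); without that array the difference was -0.60 (adjusted p = 0.0383). Cyp2c70, which makes the muricholic acids of mouse bile, fell from 13.87, 13.85 and 13.84 to 13.03, 12.31, 12.99 and 12.83 (-1.06 ± 0.21, adjusted p = 0.000418). In the mutant it stood at 11.99, 12.56, 12.13 and 12.07, a difference of -0.60 ± 0.19 from treated wild type (adjusted p = 0.0266) with overlapping arrays. That call was lost without any one of mutant replicates 1, 3 and 4 or treated wild-type replicates 1, 3 and 4 (adjusted p from 0.0507 to 0.0763). Cyp2c68 fell by the difference -1.48 ± 0.36 with treatment, its treated wild-type arrays ranging from 9.15 to 11.01, and was not called between treated groups.

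Family 1 split into a riser and a faller. Cyp1a1, the Ahr target that oxidises polycyclic aromatic hydrocarbons, lay under 4 in untreated mice, at 3.41, 3.47 and 3.60. It reached 6.26, 7.59, 4.53 and 7.33 in treated wild type, at least 5.39-fold more (2.94 ± 0.81, adjusted p = 0.00575). The 7 arrays on which Cyp1a1 reached 4 were all from treated mice, so a higher level on some treated arrays was fixed by the filter. The mutant arrays fell into a low and a high pair, 3.44, 3.51, 6.51 and 6.71, and no difference from treated wild type was called (-1.39 ± 0.75, adjusted p = 0.179); without treated wild-type replicate 3, the lowest of its group, the difference was -2.02 (adjusted p = 0.0474). The antibiotic arrays, 4.03, 3.95, 3.44 and 3.27, all lay below the treated wild type, at least 5.37-fold (-2.76 ± 0.75, adjusted p = 0.0255). This call needed most of the arrays: without antibiotic replicate 3 or 4, or treated wild-type replicate 2 or 4, the adjusted p was 0.058 to 0.0771 at differences of -2.68 to -2.37. Cyp1a2, which oxidises caffeine and aromatic amines, fell with treatment from 13.45, 13.50 and 13.45 to 11.62, 11.13, 10.45 and 11.47 (4.92-fold, adjusted p = 6.15e-06). Mutant arrays were at 11.68, 11.43, 11.79 and 12.16 and antibiotic arrays at 10.41, 9.60, 10.55 and 10.68. The antibiotic group was -0.86 ± 0.26 from treated wild type (adjusted p = 0.0408), overlapping it, and was no longer called without antibiotic replicate 1, 2 or 3 or treated wild-type replicate 1, 2 or 4 (adjusted p from 0.0515 to 0.112, differences from -0.94 to -0.62). Cyp1b1 lay under 4 on every array.

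In subfamily 2b only Cyp2b10 entered the tests. It is the classic CAR target, induced by phenobarbital, and its probe set carries the suffix that marks shared sequence. It was at 4.82, 5.55 and 6.02 in untreated mice and rose to 7.52, 7.40, 8.14 and 9.07 with treatment, 5.93-fold (2.57 ± 0.77, adjusted p = 0.00981). Its other 2 probe sets gave 2.28 ± 0.79 and 2.47 ± 0.73. The mutant arrays ranged widely, 5.29, 6.08, 8.69 and 4.49, with replicate 3 inside the treated wild-type range. The difference of -1.90 ± 0.72 was not called (adjusted p = 0.0578), and without mutant replicate 3 it was -2.75 (adjusted p = 0.00141). The other probe sets gave -1.70 (adjusted p = 0.0972) and -1.94 (adjusted p = 0.0439 over all probe sets). On the probe set used here all antibiotic arrays, 5.36, 6.69, 5.78 and 7.22, lay below the treated wild type, again without a call (-1.77 ± 0.72, adjusted p = 0.114). Cyp2b9 and Cyp2b13, which female mice express more, and Cyp2b19 did not enter the tests. Cyp2b9 read 2.37, 2.81 and 2.42 in untreated mice, 2.78, 2.79, 2.84 and 2.61 in treated wild type and 2.82, 2.49, 3.28 and 2.55 in the mutant. In the antibiotic group it read 4.31, 3.55, 2.51 and 4.46, so that replicates 1 and 4 passed the level of 4. Cyp2b13 lay between 1.98 and 2.60 on all arrays.

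**Figure D3:**
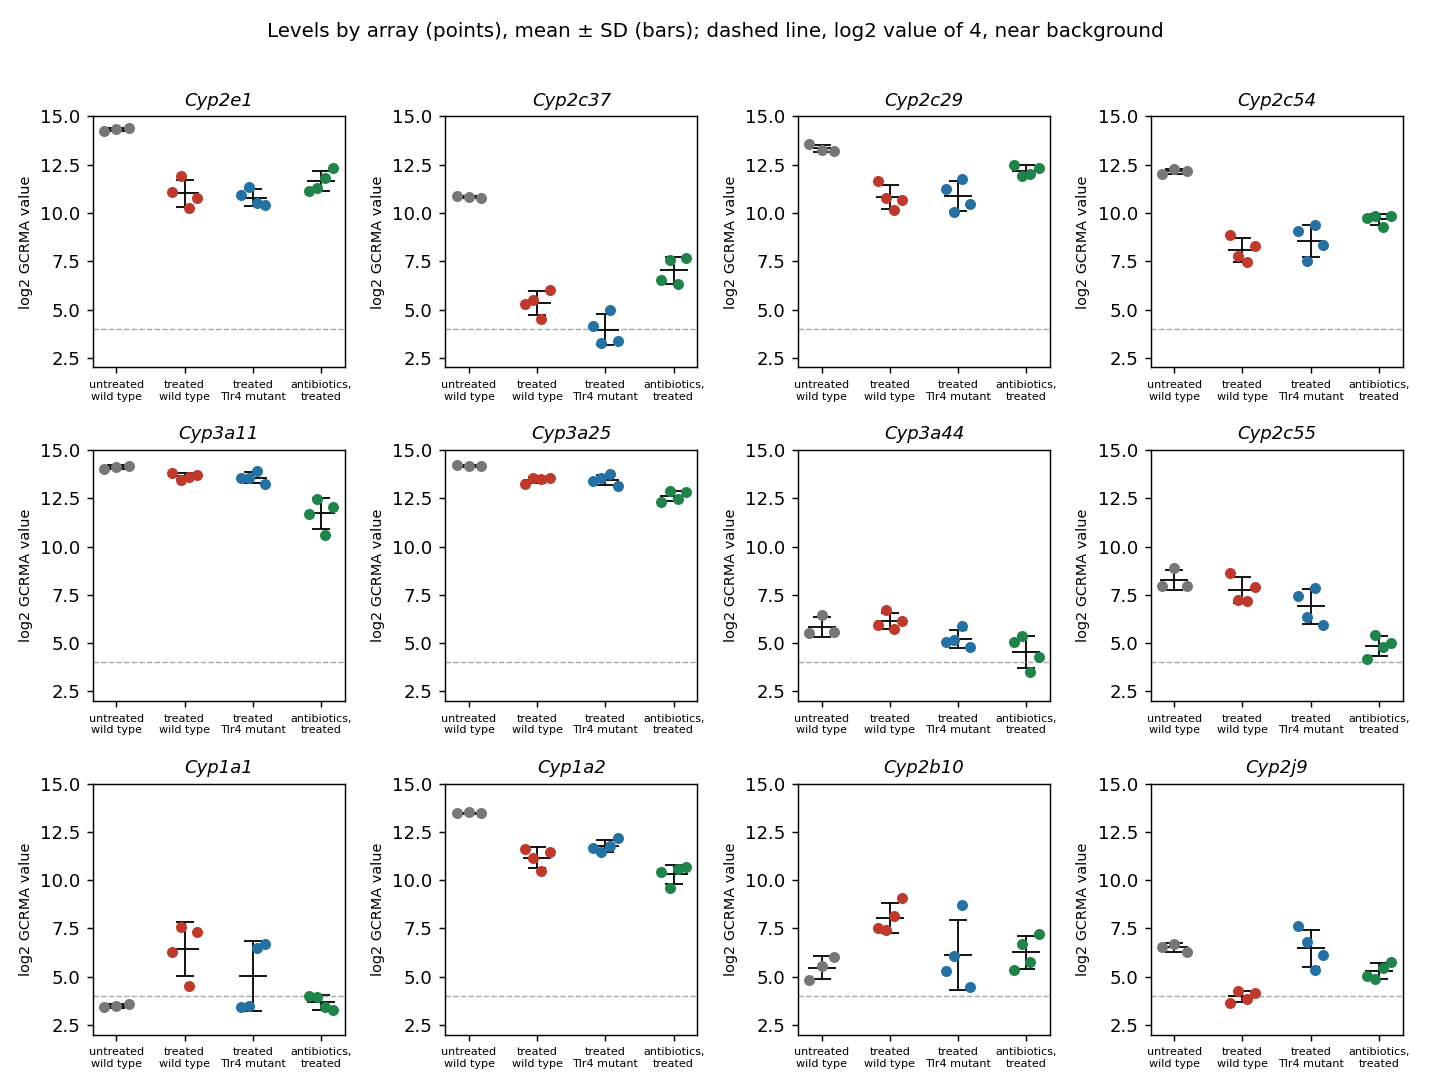
Log2 level of 12 P450 genes on every array (points) with the mean and SD of each group (bars, n = 3 untreated and n = 4 in each other group); the dashed line marks the log2 level of 4, near background. Cyp2c37, Cyp2c54 and Cyp2c29 are lower in treated wild type than in untreated mice and higher again with antibiotics, while Cyp3a11, Cyp3a25 and Cyp2c55 are lowest with antibiotics.

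Subfamily 3a was lower with antibiotics in 3 of its 4 tested genes. Its enzymes oxidise a wide range of drugs, and Cyp3a11 is the main PXR target of mouse liver. In treated against untreated wild type 1 of 4 tested genes fell, a share near the 26.7% of all genes, and none rose. In the antibiotic group the median difference of the 4 from treated wild type was -1.21, and 9.01% of all genes were lower. The promoters of Cyp3a11 and Cyp3a44, both on the minus strand of chromosome 5 and both lower with antibiotics, are shown for comparison (RefSeq, GRCm38.p6, the same window, 71.8% of aligned positions identical). Capitals mark motif matches.
Cyp3a11, chr5:145879805-145880104: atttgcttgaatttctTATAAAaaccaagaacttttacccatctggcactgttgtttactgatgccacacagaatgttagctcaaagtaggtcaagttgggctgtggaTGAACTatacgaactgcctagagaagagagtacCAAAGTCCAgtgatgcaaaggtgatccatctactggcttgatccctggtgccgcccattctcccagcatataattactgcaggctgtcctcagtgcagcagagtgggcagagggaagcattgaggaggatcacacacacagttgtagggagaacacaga
Cyp3a44, chr5:145805825-145806124: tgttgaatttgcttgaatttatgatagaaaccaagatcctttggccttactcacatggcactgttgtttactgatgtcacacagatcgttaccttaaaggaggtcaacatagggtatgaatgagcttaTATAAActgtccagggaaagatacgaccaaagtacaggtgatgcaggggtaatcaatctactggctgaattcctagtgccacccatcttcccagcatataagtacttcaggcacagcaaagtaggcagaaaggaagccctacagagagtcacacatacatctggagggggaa
Cyp3a11 holds the HNF4A motif CAAAGTCCA at -109 and the half-site AGTTCA, as TGAACT on the other strand, at -142. These letters are not in the Cyp3a44 window. Each holds 1 TATAAA, at -234 and at -122. The HNF4A motif was found in 0.475% of all promoters and in 3 of the 24 tested P450 genes with a promoter sequence, TATAAA in 13.6% and 14, and a match is not evidence of binding.

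Cyp3a11 stood at 14.01, 14.13 and 14.19 in untreated mice. Treated wild-type arrays read 13.80, 13.44, 13.62 and 13.68 and mutant arrays 13.55, 13.55, 13.93 and 13.23. Both lay close under the untreated level, with no call for treatment (-0.47 ± 0.31, adjusted p = 0.2), although every treated wild-type array was below every untreated one; with those 7 arrays fitted alone the adjusted p was 0.00694. The antibiotic arrays, 11.70, 12.48, 10.61 and 12.07, were lower than all others. They were 3.79-fold below treated wild type (-1.92 ± 0.29, adjusted p = 0.00169).

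Cyp3a25, a further drug- and steroid-oxidising member, was at 14.24, 14.15 and 14.16 in untreated and 13.24, 13.53, 13.47 and 13.55 in treated wild type, a fall of 1.66-fold (-0.73 ± 0.16, adjusted p = 0.00095). Mutant arrays, at 13.37, 13.57, 13.75 and 13.16, overlapped those of the wild type. Antibiotic arrays, at 12.32, 12.86, 12.45 and 12.81, lay below both (-0.84 ± 0.15 from treated wild type, adjusted p = 0.00328). Cyp3a44, which female mice express more, had levels close to background. They were 5.53, 6.46 and 5.57 in untreated mice, 5.95, 6.73, 5.74 and 6.16 in treated wild type and 5.04, 5.15, 5.90 and 4.81 in the mutant. With antibiotics they were 5.06, 5.37, 3.51 and 4.28, at least 2.77-fold lower (-1.59 ± 0.37, adjusted p = 0.0128). Its mutant difference of -0.92 ± 0.37 was not called (adjusted p = 0.0739) but was -1.15 without mutant replicate 3 (adjusted p = 0.0352). The antibiotic calls of Cyp3a11, Cyp3a25 and Cyp3a44 held in every alternative other than stricter thresholds. A probe set shared by Cyp3a41a and Cyp3a41b, and so outside the 43 genes, was also below treated wild type with antibiotics (-1.48 ± 0.27, adjusted p = 0.00436 over all probe sets). Cyp3a13, at 9.74, 9.58 and 9.53 in untreated and 8.84, 9.31, 9.24 and 9.35 in treated wild type, 9.61, 9.61, 9.36 and 9.42 in the mutant and 9.12, 9.56, 8.68 and 9.68 with antibiotics, was called in none of these 3 comparisons. The fetal form Cyp3a16 lay under 4 on every array.

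Cyp2e1, the enzyme that activates CCl4, was lower on every treated array than on any untreated one. Untreated arrays held 14.23, 14.36 and 14.40, and treated wild-type arrays 11.11, 11.91, 10.27 and 10.80. The fall was 9.89-fold (-3.31 ± 0.35, adjusted p = 1.52e-06). Mutant arrays, 10.91, 11.36, 10.53 and 10.39, and antibiotic arrays, 11.14, 11.31, 11.83 and 12.33, overlapped the treated wild type, with differences of -0.22 ± 0.32 (adjusted p = 0.643) and 0.63 ± 0.32 (adjusted p = 0.21). These mice had received CCl4, and the level of this enzyme at the time of the injections was not measured.

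All 6 tested genes of subfamily 2d fell with treatment, beside 26.7% of all genes. In the mutant 4 of these 6 were higher than in treated wild type, beside 13.2% of all genes. This subfamily thus gave 4 of the 6 P450 genes that were higher in the mutant. Its human counterpart CYP2D6 oxidises many drugs, and mouse Cyp2d9 hydroxylates testosterone and is higher in males. Cyp2d22 fell most, from 10.48, 10.66 and 10.55 to 8.13, 7.88, 8.17 and 8.14 (5.58-fold, adjusted p = 1.22e-08). The mutant arrays, 8.77, 8.85, 8.97 and 8.83, were all above the treated wild type (0.77 ± 0.15, adjusted p = 0.00141). So were the antibiotic arrays, 8.77, 8.41, 8.38 and 9.16 (0.60 ± 0.15, adjusted p = 0.0172). The antibiotic call rested on treated wild-type replicate 2, without which it was 0.53 (adjusted p = 0.0518), and on the choice of probe set, since the gene's other probe set gave 0.12 (adjusted p = 0.738).

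Cyp2d9 went from 13.64, 13.40 and 13.46 to 11.71, 11.99, 11.97 and 11.93 with treatment (-1.60 ± 0.16, adjusted p = 9.42e-07). Its mutant arrays were at 12.14, 12.64, 12.32 and 12.23, 0.44 ± 0.15 above treated wild type (adjusted p = 0.0386). The call was lost without mutant replicate 2 or 3 or any one treated wild-type array (adjusted p from 0.054 to 0.124, differences from 0.33 to 0.46). Antibiotic arrays, at 11.49, 11.69, 11.73 and 12.20, overlapped the treated wild type. Cyp2d10 fell from 13.89, 13.84 and 13.92 to 12.70, 12.72, 12.59 and 12.70 (-1.21 ± 0.09, adjusted p = 6.42e-08). The mutant arrays, 13.01, 13.13, 13.06 and 12.91, lay above these by 0.35 ± 0.09 (adjusted p = 0.00698), and the antibiotic arrays, 12.78, 12.69, 12.58 and 12.81, overlapped them. The promoters of Cyp2d9 and Cyp2d10 were the next most alike after the Cyp2c pair, with 83.3% of aligned positions identical, and whether their probe sets share sequence was not tested.

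Cyp2d26 changed least in the subfamily, from 12.83, 12.64 and 12.77 to 11.88, 12.23, 12.45 and 12.20 with treatment (-0.56 ± 0.14, adjusted p = 0.00322). In the mutant, at 12.81, 12.91, 12.75 and 12.55, it was higher by 0.56 ± 0.13 (adjusted p = 0.00475) and overlapped the untreated arrays. With antibiotics it stood at 12.49, 12.36, 12.58 and 12.79, not called (0.36 ± 0.13, adjusted p = 0.0787). Leaving out treated wild-type replicate 3 or antibiotic replicate 2 brought that difference to 0.45 and 0.43 (adjusted p = 0.0461 and 0.0488). Cyp2d13 and Cyp2d40 fell with treatment by the differences -2.26 ± 0.24 and -0.67 ± 0.21 and were not called in the other 2 comparisons. The antibiotic arrays of Cyp2d13, 8.99, 9.35, 9.02 and 9.20, all lay above the treated wild-type ones, 8.10, 8.91, 8.88 and 8.85, without a call (0.46 ± 0.22, adjusted p = 0.191).

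Subfamily 2j, epoxygenases of arachidonic acid, held the gene with the highest mutant difference. Cyp2j9 was at 6.56, 6.71 and 6.27 in untreated mice and at 3.66, 4.25, 3.86 and 4.18 in treated wild type, near background and at least 5.3-fold lower (-2.53 ± 0.39, adjusted p = 6.05e-05). Mutant arrays, at 7.62, 6.79, 5.33 and 6.14, lay at least 5.14-fold above treated wild type (2.48 ± 0.36, adjusted p = 0.000177) and on both sides of the untreated level. Antibiotic arrays, 5.01, 4.89, 5.46 and 5.77, lay above the treated wild type (1.30 ± 0.36, adjusted p = 0.029). The antibiotic call was lost without antibiotic replicate 3 or 4 or treated wild-type replicate 1, 3 or 4 (adjusted p from 0.0525 to 0.0824, differences from 1.13 to 1.36). Cyp2j5 fell from 13.20, 13.10 and 13.22 to 11.34, 11.49, 12.08 and 11.63 (-1.54 ± 0.21, adjusted p = 2.08e-05), with 11.50, 11.66, 11.26 and 11.04 in the mutant and 10.78, 11.41, 10.86 and 11.55 with antibiotics, and no call between treated groups. Cyp2j6 was not called with treatment by its brighter probe set (9.71, 9.52 and 9.44 against 9.06, 9.53, 9.57 and 9.27, -0.20 ± 0.16, adjusted p = 0.31), while its other probe set fell by the difference -1.46 ± 0.20 (adjusted p = 2.08e-05). In the mutant the brighter one was lower, at 8.43, 8.53, 8.76 and 8.81 (-0.72 ± 0.15, adjusted p = 0.00253), and the other gave -0.36 (adjusted p = 0.165). Antibiotic arrays read 9.01, 9.40, 8.92 and 8.77 and overlapped the treated wild type.

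The single-member subfamilies varied. Cyp2g1, known from the olfactory mucosa, went from 5.51, 7.02 and 6.43 to 2.54, 2.16, 2.60 and 2.18, at least 4.99-fold lower. It lay under 4 on all mutant arrays (2.49, 2.08, 2.54 and 2.04) and antibiotic arrays (2.79, 2.39, 1.94 and 3.23). It was tested only because its untreated arrays passed the filter, so its fall is a description and no test of it is given. Cyp2f2, a periportal enzyme that oxidises naphthalene, fell from 13.57, 13.58 and 13.66 to 12.49, 12.43, 12.67 and 12.48 (-1.08 ± 0.19, adjusted p = 0.000202). It was lower again in the mutant, at 11.55, 12.02, 12.18 and 11.64 (-0.67 ± 0.18, adjusted p = 0.011). Its antibiotic arrays, 11.55, 12.38, 11.73 and 12.22, also lay below the treated wild type without a call (-0.55 ± 0.18, adjusted p = 0.0543); without antibiotic replicate 2 or 4 the difference was -0.69 or -0.63 (adjusted p = 0.0162 or 0.0495).

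Cyp2u1, a fatty acid hydroxylase, fell from 6.51, 6.51 and 6.66 to 4.58, 4.83, 5.51 and 4.63 (-1.67 ± 0.26, adjusted p = 5.88e-05), but a dimmer probe set of the gene, close to 4, gave 0.01 (adjusted p = 0.967). Mutant arrays, 5.74, 6.11, 5.06 and 5.41, were higher by 0.69 ± 0.24 (adjusted p = 0.0408), and antibiotic arrays read 3.90, 4.68, 4.25 and 4.47. The mutant call was lost without mutant replicate 1, 2 or 4 or treated wild-type replicate 1, 2 or 4 (adjusted p from 0.0504 to 0.131, differences from 0.51 to 0.75). Cyp2r1, the vitamin D 25-hydroxylase, was at 7.79, 8.18 and 8.07 in untreated mice, 8.33, 8.10, 8.43 and 7.93 in treated wild type and 8.20, 8.27, 8.05 and 8.20 in the mutant, with no call. With antibiotics it read 6.84, 7.75, 7.14 and 8.05, lower by the difference -0.75 ± 0.21 (adjusted p = 0.0315). That call was lost without antibiotic replicate 1 or 3 or treated wild-type replicate 1, 2 or 3 (adjusted p from 0.0543 to 0.088, differences from -0.78 to -0.55). Cyp2a12, a bile acid hydroxylase in mice, fell slightly with treatment, from 12.75 ± 0.08 to 12.35 ± 0.06 (SD, n = 3 and n = 4, adjusted p = 0.0054). The coumarin hydroxylase Cyp2a5 shares its probe set with Cyp2a4 and is therefore outside the 43 genes. That probe set went from 13.19, 13.42 and 13.49 to 9.29, 8.66, 7.38 and 6.62 with treatment (-5.38 ± 0.63, adjusted p = 4.42e-06 over all probe sets), and read 8.78, 7.65, 9.72 and 8.24 in the mutant and 10.04, 8.24, 8.56 and 10.14 with antibiotics, with no call between treated groups.

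The 13 P450 genes that did not enter the tests were Cyp1b1, Cyp2b9, Cyp2b13, Cyp2b19, Cyp2c38, Cyp2c39, Cyp2c65, Cyp2d12, Cyp2d34, Cyp2j11, Cyp2j13, Cyp2s1 and Cyp3a16. For 11 of them every array lay under 4, and 1 of 15 arrays of Cyp2c39, an untreated one at 4.41, and the 2 antibiotic arrays of Cyp2b9 named above passed it. Just outside the limit of 3 arrays, then, lay Cyp2b9 with 2, and just inside it lay Cyp2g1 with its 3 untreated arrays. A gene kept through its untreated arrays alone, such as Cyp2g1, had to be lower elsewhere. Likewise a gene kept through treated arrays alone, such as Cyp1a1, had to be higher on some of them than on untreated arrays.

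Setting the mutant directly against the antibiotic group, which share no arrays, 9 P450 genes were higher in the mutant and 3 lower, beside 5.41% and 6.88% of all genes. Cyp2c55 (2.05 ± 0.43, adjusted p = 0.00692), Cyp3a11 (1.85 ± 0.29, adjusted p = 0.00128) and Cyp1a2 (1.46 ± 0.26, adjusted p = 0.00281) had the highest differences among the called genes, followed by Cyp2u1 and Cyp2j9. Lower in the mutant were Cyp2c37 (-3.08 ± 0.40, adjusted p = 0.0004), Cyp2c50 (-1.43 ± 0.30, adjusted p = 0.00661) and Cyp2c29 (-1.31 ± 0.34, adjusted p = 0.0216). So Cyp2c37 and Cyp2c29 were higher, and Cyp2c55 and Cyp3a11 lower, with antibiotics than in the mutant by a direct test. The Cyp2c29 call was lost without mutant replicate 2 or 4 or antibiotic replicate 4 (adjusted p from 0.052 to 0.0664). The calls of Cyp2d9, Cyp2d10, Cyp2j9 and Cyp2r1 were each lost without any one of 4 to 6 arrays. The count of genes higher was 5 without mutant replicate 2 and without antibiotic replicate 3.

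Against untreated wild type, both other treated groups also showed falls. In the mutant 22 of 30 fell and none rose (21.5% and 32.6% of all genes), and in the antibiotic group 26 fell and none rose (24.3% and 34.5%). At an unadjusted p under 0.05, 0 P450 genes were higher than untreated in the mutant and 0 in the antibiotic group. The medians were -1.09 and -1.58, and the falls include Cyp2g1, without which they numbered 21 and 25 of 29. These comparisons share the untreated arrays with the first one, and the mutant has no untreated group of its own strain. Cyp1a1 and Cyp2b10, the genes that rose in treated wild type, were not called in the mutant (1.55 ± 0.81 and 0.67 ± 0.77) or in the antibiotic group (0.18 ± 0.81 and 0.80 ± 0.77); without mutant replicate 1 or 2, Cyp1a1 was called higher at 2.06 or 2.08 (adjusted p = 0.0462 or 0.0422).

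The genes that serve the P450 system changed to different extents. Of 15 partner and haem synthesis genes, 7 fell and 4 rose in treated against untreated wild type, with a median of -0.30, beside 26.7% and 35.9% of all genes. Blvrb, a biliverdin reductase, was lower (-1.62 ± 0.25, adjusted p = 6.36e-05), and the haem oxygenase gene Hmox1 (1.24 ± 0.23, adjusted p = 0.000275) and Blvra (1.07 ± 0.13, adjusted p = 5.76e-06) were higher. Alas1, the rate-limiting enzyme of haem synthesis, was not called (-0.30 ± 0.17, adjusted p = 0.148). In the antibiotic group 1 of the 15, Hmox1, was lower than in treated wild type (-0.97 ± 0.21, adjusted p = 0.00932), beside 9.01% of all genes. In the mutant 3 were higher and 3 lower, shares near the 13.2% and 17.6% of all genes, Alas1 among the higher (0.49 ± 0.16, adjusted p = 0.033) and Hmox1 among the lower (-0.89 ± 0.21, adjusted p = 0.00546). The reductase gene Por was not analysed here.

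Of 32 genes for receptors and factors that regulate P450 genes, 17 fell and 2 rose with treatment, with a median of -0.42, beside 26.7% and 35.9% of all genes. The largest changes were in Nr1i3 (CAR), at -2.00 ± 0.36 (adjusted p = 0.000202), the retinoic acid receptor gene Rarb, at 1.73 ± 0.29 (adjusted p = 0.000125), and the fatty acid receptor gene Ppara, at -1.41 ± 0.21 (adjusted p = 4.51e-05). Cebpa, a hepatocyte transcription factor, was lower by the difference -1.39 ± 0.16 (adjusted p = 2.79e-06) and Hnf4a by -0.28 ± 0.10 (adjusted p = 0.0208). Ahr and Nr1i2 (PXR) were not called, at -0.36 ± 0.17 (adjusted p = 0.0797) and -0.34 ± 0.28 (adjusted p = 0.295). In the antibiotic group 6 were higher and 2 lower than in treated wild type, beside 4.95% and 9.01% of all genes. Both xenobiotic receptors were among the higher, Nr1i2 by 1.32 ± 0.26 (adjusted p = 0.0055) and Nr1i3 by 1.13 ± 0.33 (adjusted p = 0.0352). Of the genes described above as targets of these receptors, Cyp3a11 and Cyp2c55 were lower in the same arrays and Cyp2b10 was not called. Of the 30 tested P450 genes 5 were higher and 7 lower there, with Cyp2c37 and Cyp2c29 among the higher. A link between receptor and P450 levels was not tested. The other large changes were in Nr0b2, which encodes a repressor induced by bile acids (2.30 ± 0.36, adjusted p = 0.00204), and Bcl6, which encodes a repressor involved in sex-biased liver expression (-2.10 ± 0.48, adjusted p = 0.0122). In the mutant 8 were higher and 2 lower, beside 13.2% and 17.6% of all genes, led by Nr0b2 (1.46 ± 0.36, adjusted p = 0.00739), Rarb (-1.39 ± 0.27, adjusted p = 0.00149) and the retinoid X receptor gene Rxrb (1.00 ± 0.22, adjusted p = 0.00319).

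**Figure D4:**
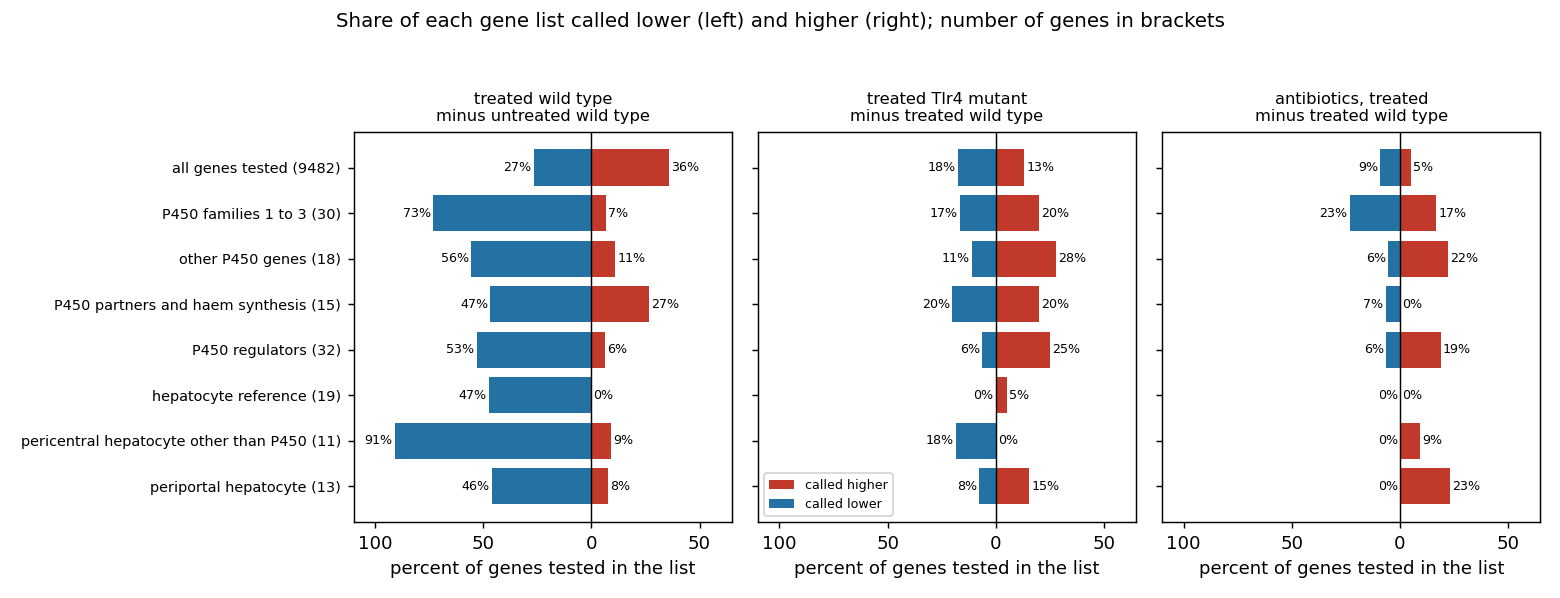
Percent of the tested genes of each list called higher (red, right) and lower (blue, left) in 3 comparisons, with the number of tested genes in brackets and all genes tested in the top row. With treatment 22 of the 30 P450 genes of families 1 to 3 and 10 of 11 other pericentral genes are called lower, beside 26.7% of all genes.

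Markers of cell types moved in the same comparisons. Of all genes tested, 26.7% fell and 35.9% rose with treatment. With treatment 10 of 11 pericentral hepatocyte genes other than P450 fell, with a median of -2.33 (the glutamine synthetase gene Glul by -3.29 ± 0.20, adjusted p = 4.98e-09). Of 13 periportal genes 6 fell and 1 rose, with a median of -0.65, Cyp2f2 being one of them. Of 19 genes of a general hepatocyte list 9 fell and none rose, with a median of -0.23. The log2 of their summed level ran from 18.33 to 18.40 on untreated and from 18.09 to 18.27 on treated wild-type arrays. Over the same arrays the log2 summed level of the P450 genes went from 17.47 to 17.50 and then from 16.12 to 16.19. Centring each array on the hepatocyte list left 22 P450 genes lower and 2 higher.

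Of the tested markers of other cells, 11 of 13 macrophage, 11 of 11 stellate cell and fibroblast, 9 of 9 cell division, 4 of 5 cholangiocyte and 2 of 2 neutrophil genes rose with treatment, beside 35.9% of all genes. The 2 neutrophil genes lay under 4 on all untreated arrays (log2 summed level at most 3.67) and passed the filter through treated arrays alone. On untreated arrays the median level was 2.59 to 3.03 for the division and 2.66 to 2.98 for the cholangiocyte genes. A gene under 4 on all untreated arrays had to be higher on some treated ones, so such rises were largely fixed by the filter. Of 9 endothelial genes 3 rose, a share near that of all genes. The 1 B cell gene tested, Ighm, fell. The log2 summed levels of the macrophage, stellate and division genes were 9.82 to 11.07, 11.07 to 12.25 and 6.53 to 7.13 on untreated and 12.70 to 13.23, 13.88 to 14.11 and 14.25 to 14.53 on treated wild-type arrays. Under 4 on all arrays, and so not tested, were Timd4 of the macrophage, Des of the stellate, Pecam1 of the endothelial and Krt7 of the cholangiocyte list, Ngp, Camp and Ltf of the 5 neutrophil genes on the array, and Ms4a1, Cd79a and Cd79b of the 4 B cell genes. In the mutant against treated wild type 12 of 13 macrophage, 11 of 11 stellate, 9 of 9 endothelial and 9 of 9 division genes were lower, beside 17.6% of all genes. In the antibiotic group 10, 6, 0 and 8 of these were lower, beside 9.01%. The log2 summed macrophage level was 10.39 to 10.75 in the mutant and 11.57 to 12.51 with antibiotics. At the same time the hepatocyte list had 1 gene higher in the mutant and none called with antibiotics. The part of these cell markers in the P450 differences was not tested.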

How the data were processed

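RNA of 15 mouse liver samples was measured on 1 Affymetrix 3' expression array each, after extraction with Trizol and a column and biotin labelling with a 3' IVT kit, per the labels' protocols. The values are log2 values deposited by the authors in a table of 45101 probe sets, made with GCRMA per the submitters' processing notes, with no version or settings given in the sources used here. Control probe sets were left out, and 34945 probe sets with 1 gene symbol were used. The 932 with several symbols were not, apart from 2 shared P450 probe sets. A _s_at or _x_at suffix marks sequence shared between transcripts or genes, so such a probe set can bind RNA of a related P450; among tested genes it applied to Cyp2b10 and Cyp2c23.

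A gene was tested if any of its probe sets reached a log2 value of 4 on at least 3 arrays. Among the probe sets that did, the one with the highest mean represented the gene. limma 3.58.1 in R 4.3.3 fitted 4 group means on all 15 arrays, and p-values were adjusted by Benjamini-Hochberg over 9482 genes in each comparison. On simulated arrays with known changes, 73.8% to 85.4% of genes changed by 1 and 97.9% to 99.0% of genes changed by 2 on the log2 scale were called. Of the genes called there, 3.19% to 8.5% had not been changed. The simulation changed 200 of 9482 genes, fewer than differed in the data, so these shares need not hold for the data. An array gives no count, so the number of arrays and the level near 4 limit the precision. Levels of different probe sets were not compared, apart from choosing the brightest probe set of a gene and summing levels within a list. Such a sum is weighted towards the brightest probe sets.

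The P450 genes and the lists of partners, regulators and cell markers were chosen with earlier results of these data known. Values per array are given for the tested genes with the 6 largest called rises and falls in each of the first 3 comparisons and for a fixed set of P450 genes. In the lists, the largest called changes were to be named, with Alas1, Hmox1, Ahr, Nr1i2, Nr1i3, Hnf4a, Cebpa, Alb and Glul. Promoters came from RefSeq (GRCm38.p6) for 35 of the 43 genes, and those printed were chosen after their values were seen. Promoters were aligned globally with Biopython 1.88. Alternatives were other scalings, filters, probe set choices, thresholds, limma settings and leaving out each array. The labels' free description, which names another age and a liver resection, conflicts with their other fields and was not used.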

Additional observations from a re-analysis of the deposited data

Results flagged for a closer look

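In 4 of 90 groups of 4 arrays tested, 1 array of a P450 gene stood apart from the other 3 by Dixon's test, where chance gives about 5%. Cyp2c23 was highest on antibiotic replicate 2, at 8.33 against 7.54 to 7.63 on the other antibiotic arrays (gap over range 0.879). Cyp2d10 was lowest on treated wild-type replicate 3, at 12.59 against 12.70 to 12.72 (0.841). Cyp2d13 was lowest on treated wild-type replicate 1, at 8.10 against 8.85 to 8.91 (0.926). Cyp2d22 was lowest on treated wild-type replicate 2, at 7.88 against 8.13 to 8.17 (0.86).

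Cyp2b9 was outside the tests because too few arrays reached 4. It read 4.31 on antibiotic replicate 1 and 4.46 on antibiotic replicate 4, above the untreated arrays at 2.37 to 2.81.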

How the results depend on the processing

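No P450 difference that was called changed sign under any alternative. Stricter thresholds aside, a call was counted as held if it stood in every alternative that tested the gene. Calls held for 24 of 24 genes in treated against untreated wild type, with the fall of Cyp2g1, fixed by the filter, included. Cyp1a1, also among the 24, passed the filter through treated arrays alone. Against treated wild type 7 of 11 held in the mutant and 6 of 12 in the antibiotic group. Against untreated mice 18 of 22 and 19 of 26 held in these groups. Between mutant and antibiotics 7 of 12 held. At an adjusted p under 0.01, 2 genes were lower in the mutant, and 0 were higher and 3 lower with antibiotics. At an adjusted p under 0.05 with at least a 2-fold change, 1 was higher and 1 lower in the mutant and 4 were lower with antibiotics. In mutant against antibiotics 5 were higher under both thresholds and with only the arrays of these groups, and 5 were lower with arrays centred on the hepatocyte list. Without the filter 2 genes were higher with antibiotics than in untreated mice. With 1 array left out, the numbers higher and lower were 2 to 2 and 22 to 22 for treatment, 4 to 5 and 3 to 6 for mutant and 4 to 6 and 4 to 9 for antibiotics against treated wild type, 0 to 1 and 20 to 22, then 0 to 0 and 21 to 27, against untreated mice, and 5 to 9 and 2 to 4 between mutant and antibiotics. The 3 lower in the mutant came without mutant or treated wild-type replicate 4, and the 4 lower with antibiotics without antibiotic replicate 3 or treated wild-type replicate 2. Levels near 4 limit Cyp1a1, Cyp2d40, Cyp2g1, Cyp2j9, Cyp2u1 and Cyp3a44, and Cyp2c37 in the mutant. The cause of these shifts was not tested. No paired analysis was possible because the arrays carry running numbers that do not repeat between groups.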

Other observations

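P450 genes outside families 1 to 3 were tested for 18 of 28 genes on the array. With treatment 10 of these fell and 2 rose in the wild type, with a median difference of -1.57, beside 26.7% and 35.9% of all genes. Cyp7a1, which makes the first step from cholesterol to bile acids, was lower by the log2 difference -2.47 ± 0.56 (limma, adjusted p = 0.00144) and Cyp46a1, the cholesterol 24-hydroxylase, by -2.93 ± 0.37 (adjusted p = 9.31e-06), while Cyp4f16 was higher by 2.51 ± 0.22 (adjusted p = 2.87e-07). Cyp7a1 was chosen after its values were seen.

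The antibiotic group held the largest difference among these 18 genes. Cyp4a14, a fatty acid hydroxylase induced through the receptor of Ppara, was at least 53.2-fold higher than in treated wild type (6.45 ± 0.73, adjusted p = 0.000401), with no overlap between arrays. Cyp4a31 was also higher (1.87 ± 0.59, adjusted p = 0.0472) with overlapping arrays, and Cyp7b1, an oxysterol hydroxylase that is higher in males, was lower (-1.61 ± 0.26, adjusted p = 0.00229). In the mutant against treated wild type Cyp46a1 was higher by 2.41 ± 0.34 (adjusted p = 0.000149) and Cyp39a1 by 1.79 ± 0.44 (adjusted p = 0.00662), and Cyp4a14 reached 2.01 ± 0.73 (adjusted p = 0.0496) with overlapping arrays. The mutant and antibiotic comparisons share the treated wild-type arrays.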
